A study of Mus musculus with 6 samples.

Results

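The cytosolic ribosomal proteins are the family of genes whose products, together with the rRNAs, form the 40S and 60S subunits of the cytosolic ribosome. Members were taken by name: every locus of the count table with a gene name of the form Rpl or Rps and a number, with an optional letter or paralog suffix, and in addition *Rplp0*, *Rplp1*, *Rplp2* and *Rpsa*. This gave 88 of 51499 loci, of which 36 carry 40S names and 52 carry 60S names. The 60S gene *Rpl13*, whose name has this form, was not among them, so the family is not complete here. Of the 88 genes, 76 are core subunits, 6 are protein-coding paralogs (*Rpl3l*, *Rpl7l1*, *Rpl10l*, *Rpl22l1*, *Rpl39l* and *Rps27l*) and 6 are annotated as processed pseudogenes that bear a ribosomal protein name (*Rps3a2*, *Rps3a3*, *Rps4l*, *Rps12l1*, *Rpl6l* and *Rpl32l*). The libraries were poly(A) RNA from WT mouse embryonic fibroblasts (MEFs), transfected for 72 h with scrambled siRNA (Scr) as the control or with an siRNA that targets *Yme1l*, and 3 independent cultures were sequenced per group. YME1L is a protease of the mitochondrial inner membrane. The cells of both groups were immortalized, by a 3T3 protocol according to the sample labels and by SV40 large T antigen according to the methods of the study, and they came from individual clones of *Yme1l* loxP/loxP mice.

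Ribosomal proteins are needed in nearly equal numbers, and their mRNAs are among the most abundant in growing cells. Most of these mRNAs carry a 5′ terminal oligopyrimidine (TOP) tract, a C followed by further pyrimidines at the cap, through which mTORC1 and LARP1 control their translation and stability. Assembly starts in the nucleolus on rRNA made by RNA polymerase I and needs a large set of biogenesis factors, many of which are targets of MYC.

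The libraries held between 37260605 and 45205207 counts. *Yme1l1*, the target of the siRNA, was at 170, 171 and 171 CPM (counts per 1e6 of the TMM-scaled library size) in the 3 Scr cultures and at 31.6, 23.4 and 45.0 CPM in the Yme1l siRNA cultures (log2 fold change -2.36 ± 0.20 SE, edgeR adjusted p = 3.87e-05). Of the 10 fibroblast markers, 9 were tested and 8 were lower after *Yme1l* knockdown (88.9%, beside 29.6% of all loci tested). The summed level of the 10 markers was 33791 to 39030 CPM of all counts in Scr cultures and 18421 to 22875 in Yme1l siRNA cultures. The summed level of 5 epithelial markers was at most 0.546 CPM, that of 6 immune cell markers at most 59.96 CPM and that of 5 endothelial markers at most 8.01 CPM. The fibroblast genes that fell included *Col1a2* and *Col3a1* (log2 fold changes -1.40 and -1.51), while *Thy1* had at most 1 count in any library. Of the immune markers, *Cd68* carried nearly all counts, and *Adgre1* and *Cd3e* had 0 counts in every library, which allows up to 3 each. Of the non-fibroblast lists, the epithelial and endothelial sums were higher in all Yme1l siRNA cultures. The epithelial sum was 0.0885 to 0.188 CPM in Scr and 0.218 to 0.546 CPM in Yme1l siRNA cultures, and none of its 5 markers passed the filter on low counts. The endothelial sum was 3.63 to 4.10 CPM in Scr and 5.86 to 8.01 CPM in Yme1l siRNA cultures. *Tek* carried most of the endothelial counts. Of the 3 endothelial markers tested, *Tek* and *Kdr* were higher (edgeR adjusted p = 0.0123 and 0.00058), and *Pecam1* was not called (adjusted p = 0.335). *Kdr* had at most 43 counts in any library. Log2 fold changes are given with the standard error (SE) from the same fit. The part of the marker changes in the results that follow was not tested.

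The sequence around the transcription start shows what the members share apart from their names. RefSeq start sites on build GRCm38.p6 matched 63 of the 88 members, of which 62 are protein-coding. In the window from 30 bases before to 50 bases after the start, a C followed by at least 8 C or T bases occurred on the sense strand in 42 of these 62 genes (67.7%), compared with 17.9% of the 27025 genes with a start site. On the opposite strand of the same window, the same tract occurred in 8 of the 62 genes and in 20.3% of all genes. The sense-strand word CTTTCC lay in this window in 18 of 62 members and in 4.36% of all genes, and its reverse complement GGAAAG in 2 of 62 and 4.23%. Over the whole 300 bases, the palindrome CTCGCGAG was found in 7 members (11.3%) and in 1.04% of all genes, and the ETS-type word CCGGAAGT in 9 members (14.5%) and 2.35% of all genes (3 of 62 and 2.12% for its reverse complement). These words can lie within the long tract or overlap each other, and a match is a description of the letters only. The following lines show 30 bases, 5′ to 3′ on the strand of the gene, for the members with the largest rise and fall that had a RefSeq start and for the pair *Rps27* and *Rps27l*. Capitals mark the longest tract of pyrimidines that begins with C, or the first such tract where tracts tie in length, as in *Rps27l*.
Rps2 (chr17:24720083-24720112, plus strand): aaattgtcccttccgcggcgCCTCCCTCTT
Rpsa (chr9:120127775-120127804, plus strand): ccggccgcccgtCCTTTCgcgctacccggg
Rps24 (chr14:24490698-24490727, plus strand): ttggtcggcagtgagcggtCCTCTTTTCCT
Rps12 (chr10:23787181-23787210, minus strand): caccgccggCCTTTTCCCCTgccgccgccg
Rpl12 (chr2:32961732-32961761, plus strand): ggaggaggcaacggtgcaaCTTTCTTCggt
Rpl37a (chr1:72711275-72711304, plus strand): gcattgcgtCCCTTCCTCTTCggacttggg
Rpl22l1 (chr3:28805500-28805529, plus strand): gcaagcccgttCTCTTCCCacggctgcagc
Rps27 (chr3:90213631-90213660, minus strand): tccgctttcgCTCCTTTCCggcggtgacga
Rps27l (chr9:66946054-66946083, plus strand): cccgcctccaCTCCTCTCCactcctccccg
Relative to the RefSeq start, the tract began at position 40 in *Rps2*, 39 in *Rps24* and *Rpl12*, 24 in *Rpl37a* and 21 in *Rpsa*. It began at 8 in *Rps12*, 3 in *Rpl22l1*, -2 in *Rps27* and -22 in *Rps27l*. A tract in the window is therefore not the same as a TOP tract at the cap. The tract was 6 bases long in *Rpsa*, 12 in *Rpl37a* and 8 in *Rpl22l1*. In *Rps2* and *Rps24* it ran to the end of the window, so that 10 and 11 bases are minimum lengths there.

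Most ribosomal protein mRNAs were more abundant after *Yme1l* knockdown. The family took 2.71%, 2.87% and 2.64% of all counts in the 3 Scr cultures and 3.72%, 3.99% and 4.004% in the Yme1l siRNA cultures. The groups did not overlap, and the mean share was 2.74% ± 0.119 in Scr and 3.90% ± 0.160 in Yme1l siRNA cultures (SD, n = 3 each), a ratio of 1.42. Counts on mitochondrially encoded genes were 2.196% to 4.11% of the Scr libraries and 2.00% to 2.14% of the Yme1l siRNA libraries, and without them the ratio was 1.40. Both subunits contributed. Counts on 40S genes rose from 1.05% ± 0.0543 to 1.56% ± 0.0728 of each library, a ratio of 1.48, and those on 60S genes from 1.69% ± 0.0670 to 2.35% ± 0.0875, a ratio of 1.39. The number of 40S counts per 60S count was 0.633, 0.627 and 0.609 in Scr cultures and 0.656, 0.670 and 0.664 in Yme1l siRNA cultures, which did not overlap. In bulk libraries a change of the cells' total RNA and a change of these mRNAs relative to the rest cannot be told apart.

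Of the 88 members, 82 passed the filter on low counts. Among these, 57 were higher and 3 lower after *Yme1l* knockdown and 22 did not pass the threshold (edgeR's quasi-likelihood test, Benjamini-Hochberg adjustment over 14499 loci, adjusted p under 0.05). This is 69.5% higher and 3.66% lower, whereas 28.4% of all loci tested were higher and 29.6% lower. The median log2 fold change was 0.40 over the 82 members and 0.01 over all loci. Among the 434 loci with a level at or above the median core member, which include members themselves, 34.8% were higher and 29.95% lower. The 3 Scr and the 3 Yme1l siRNA cultures did not overlap for 65 members, with 62 higher and 3 lower, compared with 31.9% higher and 33.6% lower over all loci. The changes were of moderate size. Only 14 members (17.1%) were called and rose at least 1.5-fold, next to 15.7% of all loci, and *Rps2* alone passed 2-fold. With the counts of its near-identical pseudogene copies added, *Rps2* had a log2 fold change of 0.97, which is under 2-fold.

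**Figure D1:**
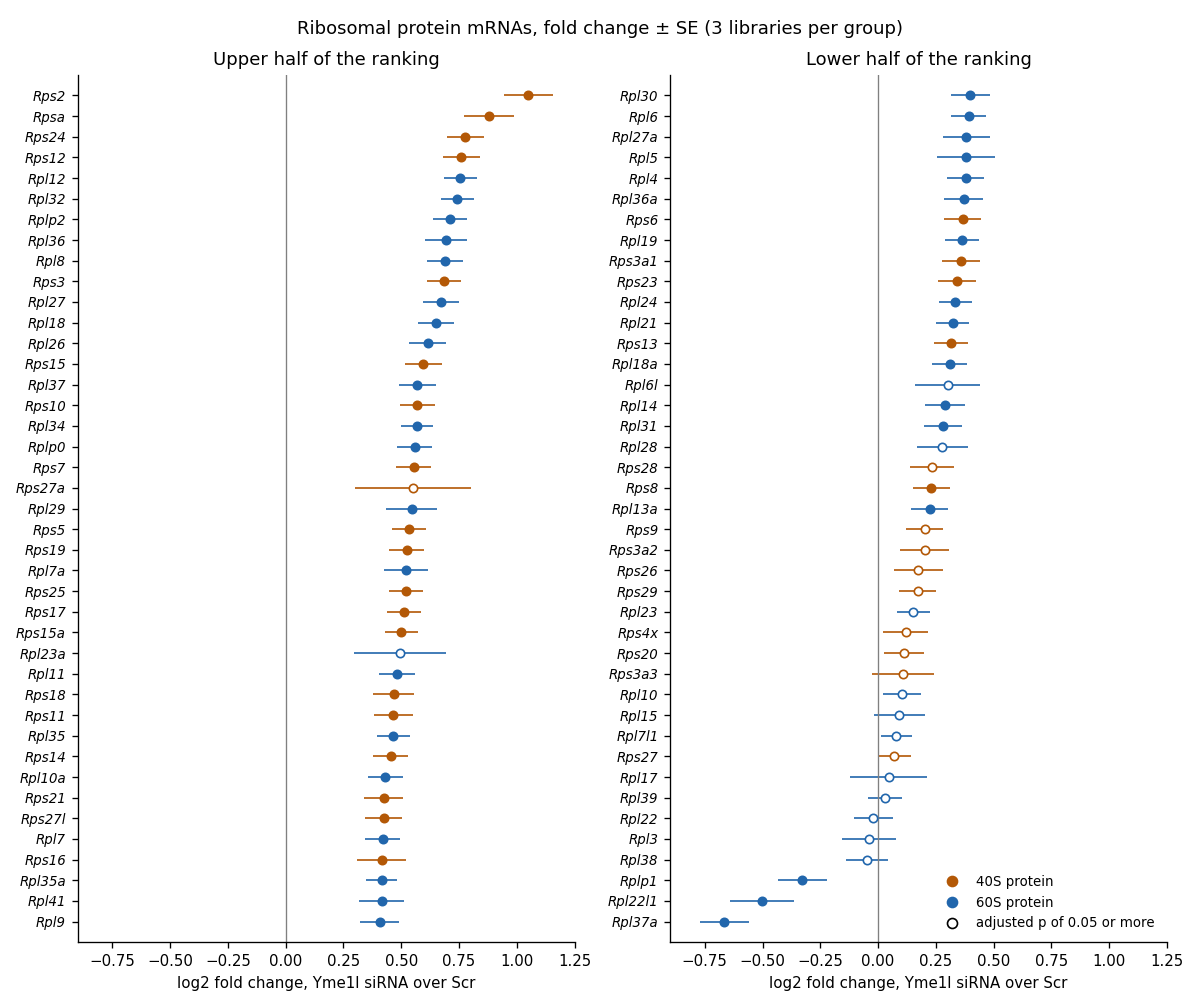
Log2 fold change (Yme1l siRNA over Scr, x axis) of the 82 members tested, ranked from top left to bottom right, with bars for the standard error from edgeR. Filled points have an adjusted p under 0.05. The values run from 1.05 for Rps2 to -0.66 for Rpl37a, and 3 of the 60S genes stand below the others.

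Among the 40S genes, 24 of 34 tested were higher and 0 lower (70.6% higher, beside 28.4% higher and 29.6% lower over all loci). Their median log2 fold change was 0.44, and all 34 values were above 0, from 0.07 to 1.05. At an unadjusted p under 0.05 edgeR also called 0 of the 34 lower, which the signs fixed in advance. DESeq2 and limma-voom, fitted to the same counts and so not independent of this, called 0 of them lower at an adjusted p under 0.05. Among the 60S genes, 33 of 48 were higher and 3 lower (68.75% and 6.25%), with a median of 0.38.

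The largest rise was that of *Rps2* (chr17:24718116-24721929), whose protein lines the mRNA entry channel of the 40S subunit. Its level was 654, 654 and 576 CPM in Scr cultures and 1132, 1440 and 1326 CPM in Yme1l siRNA cultures. All Yme1l siRNA cultures were above all Scr cultures, a log2 difference of 1.05 (SE 0.11, edgeR adjusted p = 7.87e-05). *Rpsa* (chr9:120127689-120132369), which encodes a protein near the mRNA exit site that is also known as the laminin receptor, was at 631, 645 and 491 CPM in Scr and at 1102, 1095 and 1054 CPM in Yme1l siRNA cultures (log2 fold change 0.88 ± 0.11 SE, edgeR adjusted p = 0.000227). The Yme1l siRNA cultures of *Rpsa* lay closer together than its Scr cultures. *Rps24*, a 40S protein needed for processing of the 18S rRNA precursor, had 487, 489 and 423 CPM in Scr and 794, 806 and 797 CPM in Yme1l siRNA cultures, a log2 fold change of 0.78 (SE 0.08, edgeR adjusted p = 8.65e-05). *Rps12*, at the beak of the 40S subunit, had 208, 210 and 205 CPM in Scr and 314, 370 and 371 CPM in Yme1l siRNA cultures. It rose by 0.76 on the log2 scale (SE 0.08, edgeR adjusted p = 0.000106).

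On the 60S side, *Rpl12*, which binds at the base of the ribosomal stalk, had 586, 626 and 586 CPM in Scr and 978, 1014 and 1043 CPM in Yme1l siRNA cultures (log2 fold change 0.76 ± 0.07 SE, edgeR adjusted p = 5.92e-05). *Rpl32* had 375, 406 and 374 CPM in Scr and 613, 669 and 651 CPM in Yme1l siRNA cultures (log2 fold change 0.74 ± 0.07 SE, edgeR adjusted p = 6.91e-05). For neither gene did the groups overlap. *Rps2*, *Rpl12* and *Rpl32* are among the 25 members that overlap a gene on the other strand (*Snhg9*, *Lrsam1* and *Cand2*, in this order), as are *Rpl3*, *Rpl5*, *Rpl7l1* and *Rps27a*, and whether the counting used the strand is not stated. Of these 25, 23 were tested, with 15 higher and 1 lower (65.2% and 4.35%, beside 28.4% and 29.6% of all loci). Their median was 0.45, close to that of the family.

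**Figure D2:**
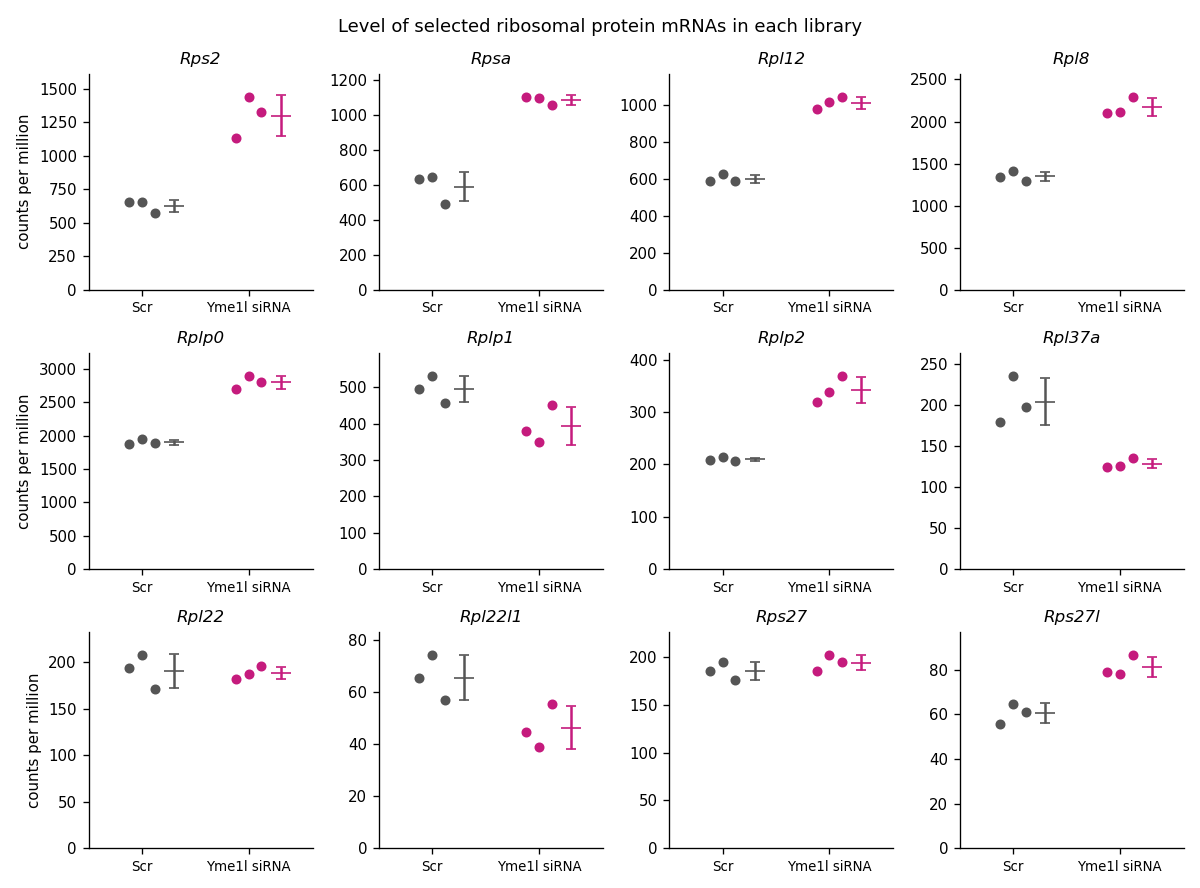
CPM (y axis, from 0) of 12 ribosomal protein mRNAs in the 3 Scr and the 3 Yme1l siRNA cultures, one point per culture, with the mean and SD beside them. Rps2, Rpsa, Rpl12, Rpl8, Rplp0, Rplp2 and Rps27l are higher and Rplp1, Rpl37a and Rpl22l1 lower in all Yme1l siRNA cultures, and the groups overlap for Rpl22 and Rps27.

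The 3 genes that fell were all 60S genes. *Rpl37a* (chr1:72711290-72713813), a small zinc-binding protein of the large subunit, was at 179, 236 and 198 CPM in Scr cultures and at 125, 126 and 136 CPM in Yme1l siRNA cultures. Its groups did not overlap and it fell by 0.66 on the log2 scale (SE 0.10, edgeR adjusted p = 0.000762). *Rpl22l1* (chr3:28805436-28807424), the paralog of *Rpl22*, was at 65.6, 74.2 and 56.9 CPM in Scr and at 44.6, 38.9 and 55.4 CPM in Yme1l siRNA cultures, where the highest Yme1l siRNA culture came close to the lowest Scr culture. It fell by 0.50 on the log2 scale (SE 0.14, edgeR adjusted p = 0.0139), and without Scr replicate 2 the adjusted p was 0.0546. *Rpl22l1* overlaps *Gm33051* on the other strand. *Rplp1* (chr9:61913284-61914542), a stalk protein, was at 495, 531 and 457 CPM in Scr and at 380, 350 and 451 CPM in Yme1l siRNA cultures. The lowest Scr and the highest Yme1l siRNA culture differed by little, and the gene fell by 0.33 on the log2 scale (SE 0.11, edgeR adjusted p = 0.0261). The call for *Rplp1* was lost in 4 of the 6 fits without 1 library, with adjusted p-values of 0.0646 and 0.0953 without Scr replicates 1 and 2 and of 0.0901 and 0.0780 without Yme1l siRNA replicates 1 and 2.

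The 3 proteins of the P stalk, the lateral arm of the 60S subunit that recruits and activates the translational GTPases, thus did not move together. *Rplp0*, which anchors the stalk, was at 1867, 1942 and 1891 CPM in Scr and at 2702, 2893 and 2795 CPM in Yme1l siRNA cultures (log2 fold change 0.56 ± 0.08 SE, edgeR adjusted p = 0.000350). *Rplp2* was at 208, 214 and 207 CPM in Scr and at 320, 339 and 369 CPM in Yme1l siRNA cultures (log2 fold change 0.71 ± 0.07 SE, edgeR adjusted p = 8.95e-05). RPLP1 and RPLP2 bind to RPLP0 as heterodimers. There were 2.38, 2.49 and 2.21 *Rplp1* counts per *Rplp2* count in Scr cultures and 1.19, 1.03 and 1.22 in Yme1l siRNA cultures. The means were 2.36 ± 0.138 and 1.15 ± 0.101 (SD, n = 3 each), which do not overlap, and this ratio was formed after the levels had been seen.

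Other functional groups of the ribosome were described by the same fit. *Rpl5* and *Rpl11* form the 5S RNP with the 5S rRNA, which also binds MDM2. *Rpl11* was at 263, 270 and 233 CPM in Scr and at 344, 358 and 370 CPM in Yme1l siRNA cultures (log2 fold change 0.48 ± 0.08 SE, edgeR adjusted p = 0.000887). *Rpl5* was more variable, at 418, 600 and 520 CPM in Scr and 679, 698 and 624 CPM in Yme1l siRNA cultures, which did not overlap (log2 fold change 0.38 ± 0.13 SE, edgeR adjusted p = 0.0296). The call for *Rpl5* was lost in 4 of the 6 fits without 1 library, with adjusted p-values of 0.0891 and 0.0635 without Scr replicates 1 and 3 and of 0.0805 and 0.0709 without Yme1l siRNA replicates 1 and 2. Of 8 proteins at the peptide exit tunnel and its rim, 5 were higher and 0 lower (62.5% higher, beside 28.4% of all loci). They were led by *Rpl26* at a log2 fold change of 0.61, and *Rpl17*, *Rpl23a* and *Rpl39* did not pass the threshold. All 8 log2 fold changes were above 0, so that 0 lower by edgeR at an unadjusted p under 0.05 was fixed by the signs. By DESeq2, fitted to the same counts, 0 of these 8 were lower as well. *Rpl3* and *Rpl10*, which encode proteins that reach towards the peptidyl transferase centre, missed the threshold, with log2 fold changes of -0.04 for *Rpl3* (edgeR adjusted p = 0.799) and 0.10 for *Rpl10* (adjusted p = 0.307). Of 4 proteins of the mRNA channel and decoding side of the 40S subunit, *Rps2*, *Rps3* and *Rps23* rose by 1.05, 0.68 and 0.34 on the log2 scale, while *Rps9* was at 0.20 (edgeR adjusted p = 0.0585). On the mRNA exit side *Rpsa* and *Rps14* rose by 0.88 and 0.45, whereas *Rps26* and *Rps28* were at 0.17 and 0.23 and missed the threshold.

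The 22 members without a call were centred on a log2 fold change of 0.12 (median), in a range from -0.05 to 0.55. For 5 of these 22 all Yme1l siRNA cultures lay above all Scr cultures, which was so for 31.9% of all loci tested. Besides the genes named above and below they were *Rps4x*, *Rps20*, *Rps29*, *Rpl15* and *Rpl28*, with log2 fold changes of 0.12, 0.11, 0.17, 0.09 and 0.28, and *Rpl23* and *Rpl38* at 0.15 and -0.05. A missed threshold does not show that these genes did not change. Of the 9 core members with a coding length under 300 bases, 3 were higher and 1 lower (median 0.17), compared with 53 and 1 of the 67 longer ones (median 0.42). Over all loci tested, 28.4% were higher and 29.6% lower, so that 3 of 9 higher is near the share of all loci. Over the 76 core members, Spearman's rho of the log2 fold change was 0.12 with the coding length, 0.29 with the GC content of the transcript and 0.26 with the mean log2 CPM. These values describe 76 genes measured in the same 6 libraries. Members with the pyrimidine tract at the start had a median log2 fold change of 0.42 (40 genes tested) and those without it of 0.31 (19 genes tested).

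In levels per transcript length, which the authors' mean FPKM per group gives (fragments per kilobase of transcript, scaled to library size, 3 libraries combined, no spread given), the core members spanned 32.4 to 1928 in Scr cultures with a median of 594, and 33.2 to 3101 with a median of 808 in Yme1l siRNA cultures. *Rpl8*, *Rplp0* and *Rpl41* ranked highest in Scr cultures at 1928, 1657 and 1607 FPKM. *Rpl8* encodes a core protein that is likewise close to the peptidyl transferase centre, and in the counts it was at 1342, 1406 and 1291 CPM in Scr and 2107, 2115 and 2294 CPM in Yme1l siRNA cultures (log2 fold change 0.69 ± 0.08 SE, edgeR adjusted p = 0.000154). *Rpl41*, the smallest ribosomal protein with a coding length of 75 bases, was at 440, 485 and 398 CPM and at 534, 603 and 627 CPM (log2 fold change 0.42 ± 0.10 SE, edgeR adjusted p = 0.00610). For *Rpl8*, *Rplp0* and *Rpl41* the groups did not overlap. *Rpl17* had the lowest level at 32.4 FPKM, and it also had the highest share of counts on copies, as follows.

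Ribosomal protein genes have many processed pseudogenes, and a read that fits a gene and its copy can be counted on either. Copies with at least 95% identity over 100 bases or more held counts for 74 of the 88 members. Together they took 10.4% to 11.1% of the counts of members and copies in Scr cultures and 10.6% to 10.97% in Yme1l siRNA cultures, so the share of the family as a whole did not separate the groups. For single members the share was large. Copies of *Rpl17* held between 86.2% and 91.6% of the counts of gene and copies, those of *Rpl23a* 67.1% to 83.9% and those of *Rpl21* 55.4% to 61.4%. The copies of *Rps12* held 41.1% to 42.8%, chiefly *Rps12-ps3*, which is 100% identical over 494 bases.

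In some members the share varied between libraries of 1 group. For *Rps27a*, which encodes ubiquitin fused to a 40S protein, it was 44.8%, 44.1% and 37.4% in Scr and 50.1%, 44.4% and 27.5% in Yme1l siRNA cultures. *Rps27a* itself was at 128, 166 and 181 CPM in Scr and at 162, 198 and 337 CPM in Yme1l siRNA cultures. The groups overlapped, and the log2 fold change was 0.55 (SE 0.25, edgeR adjusted p = 0.0894). When the copies were added, it was 0.49 (edgeR adjusted p = 0.0171). The copy *Gm8226* of *Rpl7a* held 3, 3 and 4 counts in Scr cultures and 6 and 5 counts in Yme1l siRNA cultures 1 and 3, but 10538 counts in Yme1l siRNA culture 2, so that the change of *Rpl7a* went from 0.52 to 0.88 with copies added. *Rpl15* was at 0.09 (edgeR adjusted p = 0.503) alone and at 0.30 (adjusted p = 0.00397) with its copies, and *Rpl30* lost its call, from 0.40 (adjusted p = 0.00338) to 0.27 (adjusted p = 0.0774). *Rpl23a* changed by 0.50 (edgeR adjusted p = 0.0595) alone and by 0.28 (adjusted p = 0.0151) with copies. With copies added, 61 members were higher and 3 lower, and 56 of the 57 members that were higher before were among the 61. The 16 core members with at least 20% of the counts on copies were centred on 0.38 (median log2 fold change), and the 28 with under 5% a median of 0.46.

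Paralogs let cells form ribosomes of different composition. *Rps27l*, a p53 target in other systems, was at 55.8, 64.8 and 61.1 CPM in Scr and at 79.1, 78.1 and 86.5 CPM in Yme1l siRNA cultures, and all Yme1l siRNA cultures were higher (log2 fold change 0.42 ± 0.08 SE, edgeR adjusted p = 0.00193). *Rps27* was at 185, 195 and 176 CPM and at 186, 202 and 195 CPM, which overlap (log2 fold change 0.07 ± 0.07 SE, edgeR adjusted p = 0.432). *Rps27l* thus made up 23.1%, 24.97% and 25.8% of the counts of the pair in Scr and 29.9%, 27.9% and 30.7% in Yme1l siRNA cultures. In the other direction, *Rpl22* was at 194, 208 and 171 CPM in Scr and 182, 187 and 196 CPM in Yme1l siRNA cultures (log2 fold change -0.02 ± 0.08 SE, edgeR adjusted p = 0.853). The authors' FPKM of *Rpl22* was 423 in Scr and 554 in Yme1l siRNA cultures, a rise that the counts did not show. The cause of this difference was not tested. *Rpl22l1* went from 25.3%, 26.3% and 24.9% of the *Rpl22* pair to 19.7%, 17.2% and 22.1%. *Rpl7l1*, which acts in 60S biogenesis, was at 239, 242 and 225 CPM and at 248, 240 and 257 CPM (log2 fold change 0.08, edgeR adjusted p = 0.336) beside a rise of *Rpl7* by 0.42 (adjusted p = 0.00159), so that its share of the pair was 27.6%, 28.7% and 28.9% in Scr and 23.8%, 23.6% and 24.0% in Yme1l siRNA cultures. For these 3 pairs the shares did not overlap between the groups. The exact permutation test of the log2 ratio, two-sided, gave p = 0.1 for each, the smallest value that 3 against 3 libraries allow, and an adjusted p of 0.125 over 5 pairs.

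The muscle paralog *Rpl3l* had 1, 0 and 0 counts in Scr and 2, 1 and 0 in Yme1l siRNA cultures, and the germline paralogs *Rpl10l* and *Rpl39l* had 0 counts in every library, which allows up to 3 counts each. These genes were not tested, nor were *Rpl32l*, *Rps12l1* and *Rps4l*, which had at most 11 counts in any library. *Rps4l* had 1, 1 and 2 counts in Scr and 7, 11 and 9 counts in Yme1l siRNA cultures, and its difference relative to *Rps4x* gave an exact permutation p of 0.1 and an adjusted p of 0.125. The pair of *Rpl3l* and *Rpl3* gave p = 0.6 in the exact permutation test. The remaining processed pseudogenes, *Rps3a2*, *Rps3a3* and *Rpl6l*, were tested and overlapped between the groups, with log2 fold changes from 0.11 to 0.30.

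The genes that make, assemble and regulate ribosomes were compared in the same fit as lists. Among ribosomal proteins outside the name pattern, *Rack1* was at 841, 832 and 790 CPM in Scr and at 1106, 1170 and 1094 CPM in Yme1l siRNA cultures (log2 fold change 0.45 ± 0.07 SE, edgeR adjusted p = 0.000862). *Fau* and the locus that holds *Rpl36al* were at 0.27 and 0.16 (edgeR adjusted p = 0.0885 and 0.123). That locus also joins other genes, among them *Dnaaf2* and *Pole2*, so its counts cannot be assigned to *Rpl36al* alone. Of 54 ribosome biogenesis factors, 43 were higher and 3 lower (79.6% and 5.56%, beside 28.4% and 29.6% of all loci). Their median log2 fold change was 0.63. The smallest adjusted p-values were those of the nucleolar factors *Nolc1*, *Rrp9* and *Rrp12*, which rose by 1.14, 1.13 and 1.17 on the log2 scale. Of 16 genes of the RNA polymerase I machinery, 11 were higher and 1 lower (68.75% and 6.25%, median 0.43). The smallest adjusted p-values were those of the polymerase subunit *Polr1f*, listed as *Twistnb*, and of *Taf1d* and *Taf1a*, with log2 fold changes of 1.26, 0.85 and 0.70. Of 7 chaperones dedicated to ribosomal proteins, 4 were higher (57.1%) and 0 lower by edgeR (0 also at an unadjusted p under 0.05, and 0 by DESeq2). *Grwd1*, *Heatr3* and *Bccip* were among the 4, at 0.75, 0.56 and 0.29.

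A list of 16 translation factors and other genes known for TOP mRNAs held 6 that were higher (37.5%, beside 28.4% of all loci) and 1 lower, and its median log2 fold change was 0.13. The poly(A)-binding protein gene *Pabpc1* stood out at 1374, 1221 and 1069 CPM in Scr and 2148, 2065 and 2105 CPM in Yme1l siRNA cultures (log2 fold change 0.79 ± 0.10 SE, edgeR adjusted p = 0.000275), and *Eef1d* and *Eif3l* rose by 0.43 and 0.32. Of 20 tested genes of the growth control of ribosomal protein mRNAs, 6 were higher and 6 lower, 30% each way, which is close to the 28.4% and 29.6% of all loci. *Myc* rose from 103, 102 and 122 CPM to 225, 231 and 208 CPM, and *Eif4ebp1*, which encodes a translational repressor downstream of mTORC1, from 89.8, 91.9 and 87.2 CPM to 171, 182 and 163 CPM (log2 fold changes 1.02 and 0.94). *Ddit4*, an inhibitor of mTORC1, fell by 2.08 on the log2 scale, from 290, 324 and 390 CPM to 71.3, 67.8 and 98.6 CPM. For these 3 genes the groups did not overlap. Of 17 genes of stalled ribosome surveillance, 6 were higher and 3 lower (35.3% and 17.6%, beside 28.4% and 29.6% of all loci, median 0.09), with *Abce1* and *Ascc3* at 0.59 and 0.76 and *Eif2ak4*, which encodes the kinase GCN2, at -0.65.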

How the data were processed

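The authors mapped paired reads of 100 bases from stranded poly(A) libraries to mm10 with HiSat 2.0.4, assembled transcripts with StringTie 1.3.3 and compared groups with Cufflinks 2.2.1. They deposited raw counts per locus, without normalization; the counting program and its use of strand and of reads with several matches are not given in the sources used here. The authors also deposited FPKM values per group, with the 3 libraries combined, and columns of their own comparison (fold changes and p-values), which were not used.

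Both groups were compared with the quasi-likelihood test of edgeR 4.0.16 (R 4.3.3), after TMM scaling and with no covariate, on loci kept by filterByExpr (minimum of 10 counts, 15 in total), with Benjamini-Hochberg adjustment over 14499 loci. The standard error is the size of the log2 fold change divided by the square root of F. Tests were run on simulated data first. DESeq2 1.42.0, limma-voom (limma 3.58.1), other scale factors and filters, a block for the replicate number, leaving out each library, and summing with pseudogenes were alternatives. Depth was 37260605 to 45205207 counts per library, and no library repeated another of its group (chi-square per degree of freedom from 10.4 to 75.5).

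Members and lists were chosen with earlier results of these data known. Named genes are Yme1l1, the 6 called members with the largest rise and up to 6 with the largest fall, the 3 members with the highest level per length, paralog pairs with counts, members of the P stalk, 5S RNP and ubiquitin fusion, the other ribosomal proteins, and the 3 smallest adjusted p-values per related list; others were named after their values were seen. Gene positions and transcripts are from GENCODE M21 (GRCm38), copies from BLAST 2.17.0, start sequences from RefSeq. Some items of these lists are not reported here.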

Additional observations from a re-analysis of the deposited data

How the results depend on the processing

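The counts of members called higher ranged from 51 to 62 over all alternatives and that of members called lower from 1 to 3, with a median log2 fold change from 0.34 to 0.44. At an adjusted p under 0.01, 51 of the 82 tested members were higher and 1 lower (1 of the 60S genes). Of the 134 tested genes of the related lists, 8 were lower instead of 14. The share of all loci at 0.01 is not given here, so these counts show only the effect of the threshold on the lists. Leaving out 1 library gave 1 to 3 members and 60S genes lower and 9 to 13 genes of the related lists lower; the value of 1 was without Scr replicate 2 and that of 9 without Scr replicate 1. Of the 82 members tested, 59 kept direction and call in all 17 alternative fits. A change of sign in at least 1 alternative occurred for Rpl3, Rpl15, Rpl17, Rpl22, Rpl38, Rpl39 and Rps3a3, all without a call; Rpl17 went from 0.05 to -0.16 with copies added. Rpl3 ranged from -0.19 to 0.045 without 1 library and was at 0.0013 with copies added. Rpl22 ranged from -0.098 to 0.038 without 1 library and was at 0.012 with a mean of at least 50 counts. The cause was not tested. With the replicate number as a block, 62 members were higher and 3 lower and the median was 0.40; same-numbered libraries correlated at 0.041, 0.12 and 0.19 in their deviations from the group means, so the numbers were not taken as pairs. Rps27a was called under the block (edgeR adjusted p = 0.01001). Counts limit what can be said of the paralogs near 0, and reads shared with pseudogenes limit single members more than the family.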
